A study of Mus musculus with 8 samples.

Results

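A set of 7 genes that act in the exit of T cells from the thymus and in their homing were followed in mature CD8 single-positive (CD8SP) thymocytes. They are S1pr1, S1pr4, Sgpl1, Cd69, Cd44, Selplg and Coro1a, they were taken by name, and each of the 7 was found among the 47937 genes of the deposited counts table and had enough counts to be tested. The RNA came from sorted TCRb+ MHC-I high CD8SP cells of the thymus of mice 6 to 7 weeks old, with 4 Ndrg3ctrl and 4 Ndrg3TKO libraries that the labels call biological replicates 1 to 4. Ndrg3ctrl mice had the genotype Ndrg3 +/fl;Lck-cre+ and Ndrg3TKO mice Ndrg3 fl/fl;Lck-cre+, so that both groups carried the Cre recombinase and differed in having 1 or 2 floxed Ndrg3 alleles, the controls keeping 1 allele that Cre cannot delete. Cre was driven by the proximal Lck promoter, which is active from an early thymocyte stage on, and no group without Cre was sequenced here. The comparison asks whether loss of Ndrg3 goes with a different abundance of egress and homing transcripts in the last thymic stage before export.

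Mature thymocytes leave along a gradient of sphingosine 1-phosphate (S1P), a lipid that is abundant in blood and kept scarce in the thymic tissue. The receptor S1PR1 reads this gradient, the lyase encoded by Sgpl1 degrades the lipid, and CD69 binds S1PR1 and takes it off the surface, so that cells losing CD69 and gaining S1PR1 become able to exit. Coronin 1A is an actin regulator needed for this migration, PSGL-1, the product of Selplg, is the main ligand of P-selectin, and CD44 binds hyaluronan.

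Total counts ranged from 21126698 to 32668081 per library, and the library with the fewest was Ndrg3ctrl replicate 2. The floxed gene served as a check of the labels: the normalized count of Ndrg3, that is the count brought to a common library size with TMM factors, lay between 2292 and 2357 in Ndrg3ctrl and between 1401 and 1600 in Ndrg3TKO, which gave −0.64 on the log2 scale (standard error 0.0526, adjusted p = 1.04e-05, edgeR quasi-likelihood test with Benjamini-Hochberg adjustment). Reads were counted over all exons, those outside the floxed part included. Y-linked genes had counts in Ndrg3ctrl replicate 2 and in Ndrg3TKO replicates 2 and 3 only, between 340 and 416 CPM (counts relative to the library total) against at most 0.0752 in the others. The groups thus hold 1 and 2 such libraries of 4. Mitochondrial genes took 0.636 to 0.820% of the counts in Ndrg3ctrl and 0.571 to 0.712% in Ndrg3TKO. The CD8 T cell markers (Cd8a, Cd8b1, Cd3e, Cd3d, Trac, Trbc1, Trbc2 and Runx3) summed to 5205 to 5859 CPM in Ndrg3ctrl and to 5386 to 5691 in Ndrg3TKO, and Cd4 had 7.1 to 42.7 normalized counts.

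None of the 7 genes passed the test between the groups at an adjusted p of 0.05 (edgeR, quasi-likelihood test, Benjamini-Hochberg over 14633 tested genes, 1.15% of which passed). At an unadjusted p under 0.05 there were 2 of the 7, S1pr1 and S1pr4, both lower in Ndrg3TKO, where 5.51% of all tested genes were lower at that level and 10.9% differed in either direction. The log2 fold changes of the 7 ran from −0.22 to 0.14 with a median of −0.06, beside a median of −0.0033 over all tested genes, and 3 were positive and 4 negative. For each of the 7 the ranges of the groups overlapped, while 7.04% of all tested genes had groups that did not overlap.

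**Figure D1:**
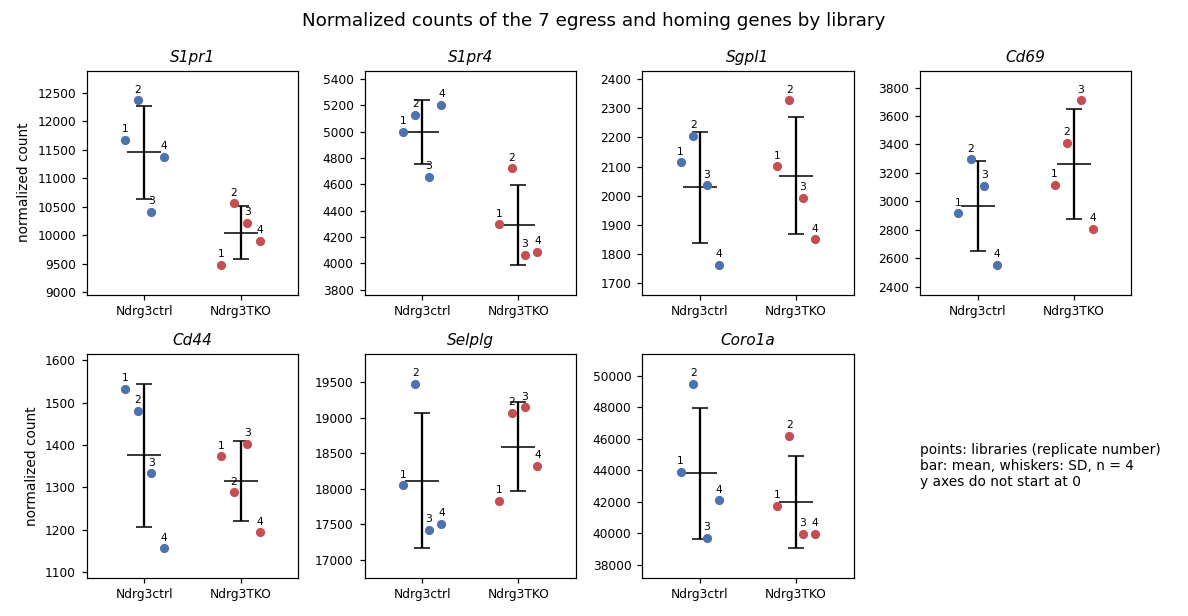
Normalized counts (y axes, which do not start at 0) of the 7 genes in the Ndrg3ctrl (blue) and Ndrg3TKO (red) libraries, with replicate numbers beside the points, the mean as a bar and the SD (n = 4) as whiskers. For S1pr1 and S1pr4, 3 of the 4 Ndrg3TKO libraries lie below the lowest Ndrg3ctrl library, and the groups of the other 5 genes are mixed.

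The S1P receptors came first. S1pr1 (ENSMUSG00000045092), the receptor that T cells need to exit, lies on the minus strand at chr3:115710433-115715072 of GRCm38, with 2 exons of 3046 bases in all. Its normalized count was 11672, 12364, 10405 and 11370 in Ndrg3ctrl replicates 1 to 4 and 9477, 10561, 10220 and 9904 in Ndrg3TKO. In Ndrg3TKO, 3 libraries were below the lowest Ndrg3ctrl library, replicate 3, and Ndrg3TKO replicate 2 was above it. The mean was 11453 ± 813 (SD, n = 4) in Ndrg3ctrl and 10040 ± 462 (SD, n = 4) in Ndrg3TKO, 12.3% lower, with a log2 fold change of −0.19 (95% interval −0.32 to −0.06, standard error 0.0599). Its unadjusted p was 0.00676, rank 487 of the tested genes, and its adjusted p 0.203 (edgeR quasi-likelihood test, Benjamini-Hochberg adjustment). In RNA from a whole sorted population, fewer cells with a transcript and less of the transcript per cell cannot be told apart.

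S1pr4 (ENSMUSG00000044199), another S1P receptor of lymphocytes, is a gene of 1 exon of 2386 bases on the minus strand at chr10:81497747-81500132. The libraries of Ndrg3ctrl replicates 1 to 4 had 4997, 5127, 4655 and 5202 normalized counts of it, and those of Ndrg3TKO 4297, 4722, 4063 and 4088. As for S1pr1, Ndrg3TKO replicate 2 alone stood above the lowest Ndrg3ctrl library, here again replicate 3. The means of 4995 ± 242 and 4292 ± 305 (SD, n = 4 each) gave a log2 fold change of −0.22 (95% interval −0.34 to −0.09, standard error 0.0586), 14.1% lower in Ndrg3TKO. This was the widest difference among the 7 genes, with an unadjusted p of 0.00219, rank 276, and an adjusted p of 0.116 (edgeR quasi-likelihood test, Benjamini-Hochberg adjustment).

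Depth did not set the precision of these values. Counting error alone amounts to 0.911 to 1.07% of the S1pr1 count in a library and 1.39 to 1.66% of the S1pr4 count, against coefficients of variation between libraries of 7.10% and 4.60% for S1pr1 and 4.84% and 7.10% for S1pr4 in Ndrg3ctrl and Ndrg3TKO.

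The call for both receptors depended on the model, and the direction did not. S1pr4 passed in DESeq2 (adjusted p = 0.0421, with 2.11% of all tested genes passing), in edgeR without a filter on low counts (adjusted p = 0.0290, 1.11% of all genes passing), with the presence of Y-linked counts as a covariate (adjusted p = 0.0382) and without Ndrg3TKO replicate 2 (log2 fold change −0.27, edgeR adjusted p = 0.0382, 1.07% passing). Its adjusted p lay between 0.0290 and 0.344 over the edgeR, DESeq2 and limma-voom settings that had no term for the replicate number. S1pr1 passed with the Y-linked covariate (log2 fold change −0.22, edgeR adjusted p = 0.0307), a fit in which 2.99% of all tested genes passed, and had adjusted p-values from 0.0982 in DESeq2 to 0.483 in the other settings with no term for the replicate number. Within the libraries that lack Y-linked counts, 3 Ndrg3ctrl and 2 Ndrg3TKO, neither receptor's groups overlapped (S1pr1 10405 to 11672 against 9477 to 9904, S1pr4 4655 to 5202 against 4088 to 4297), and the edgeR adjusted p of this smaller set was 0.401 for S1pr1 and 0.244 for S1pr4. Among the libraries with Y-linked counts, the Ndrg3ctrl library stood above both Ndrg3TKO libraries for each receptor. The share of all tested genes that separate in sets this small was not computed, so these orders are descriptions only.

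**Figure D2:**
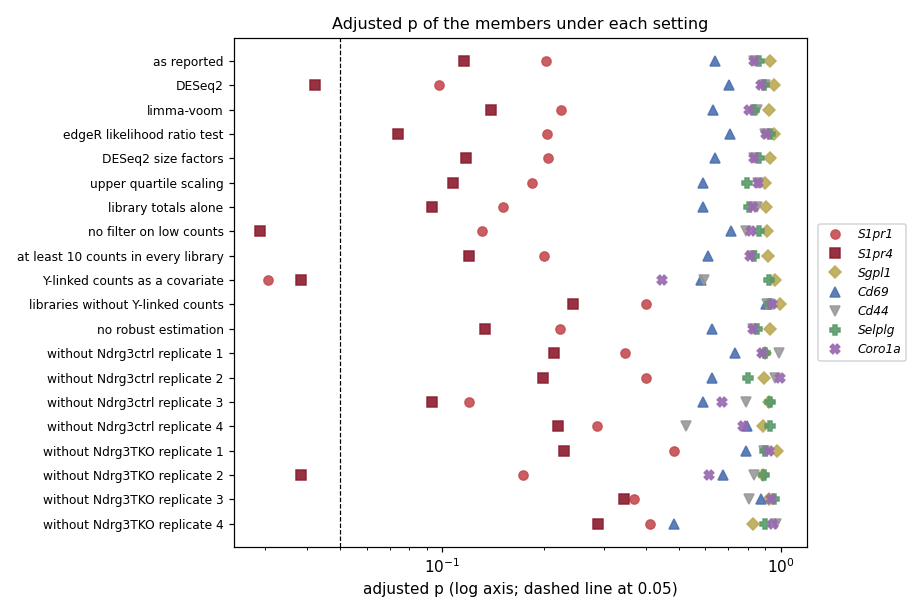
Adjusted p (x axis, log scale, dashed line at 0.05) of the 7 genes in the fit as reported and under the alternative tools, scalings, filters, covariates and left-out libraries on the y axis, without the fit that uses the replicate number as a block. S1pr4 lies left of 0.05 under 4 of them and S1pr1 under 1, and the other 5 genes under none.

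The other S1P receptors gave little signal. S1pr2, a receptor that opposes migration, had 159 to 249 counts per library and a log2 fold change of 0.0098 (edgeR adjusted p = 0.988, Benjamini-Hochberg), S1pr3 had 0 or 1 count and S1pr5 had 0 in every library, which allows up to 0.0918 to 0.142 CPM by the floor of 3 counts.

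The bases before the start of S1pr4 and of Sgpl1 are shown because these genes had the widest and the narrowest difference of the 7. They come from RefSeq for GRCm38.p6, which holds such a window for 4 of the 7 genes, S1pr4, Sgpl1, Cd44 and Coro1a. The 250 bases end just before the start site, read 5′ to 3′ along the gene, at chr10:81500138-81500387 for S1pr4 and chr10:61147685-61147934 for Sgpl1, both on the minus strand. Capitals mark matches on either strand to the KLF box, CCACCC, and to the NFAT core, GGAAA. Every match in these windows lies on the strand opposite to the gene, so it reads here as the reverse complement, and no motif overlaps another.
S1pr4: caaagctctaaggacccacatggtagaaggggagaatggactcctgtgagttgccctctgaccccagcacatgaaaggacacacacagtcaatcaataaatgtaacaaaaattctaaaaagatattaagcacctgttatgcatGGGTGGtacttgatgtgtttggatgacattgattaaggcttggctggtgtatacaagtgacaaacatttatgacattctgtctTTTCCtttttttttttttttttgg
Sgpl1: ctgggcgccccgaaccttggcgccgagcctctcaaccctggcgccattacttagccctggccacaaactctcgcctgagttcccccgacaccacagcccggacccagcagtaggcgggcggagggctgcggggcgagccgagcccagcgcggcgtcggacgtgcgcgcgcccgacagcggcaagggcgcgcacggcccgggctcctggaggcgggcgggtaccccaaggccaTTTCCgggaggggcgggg
The KLF box stood 107 to 102 bases before the S1pr4 start, and 28.1% of the 32851 promoter windows of the same length held it. Of the 5 windows of the 4 genes 2 held it, that of S1pr4 and 1 of Coro1a. The NFAT core, present in 55.6% of all windows, lay 24 to 20 bases before the RefSeq start of S1pr4 and 18 to 14 before that of Sgpl1, and it was found in each of the 5 windows of these genes (Coro1a has 2 starts). In GENCODE, Sgpl1 reaches chr10:61147703, so its span overlaps the RefSeq window, and the NFAT match of Sgpl1 lies within that span. The forkhead motif GTAAACA (3.17% of all windows), the T-box site AGGTGT (11.8%) and the AP-1 site TGACTCA (4.46%) were in none of the 5. The windows also differed in composition: 38.8% of the S1pr4 bases were G or C, with no CG dinucleotide, against 74.8% with 31 CG dinucleotides for Sgpl1 and a median of 52.4% with 6 over all windows.

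Sgpl1 (ENSMUSG00000020097), which encodes the S1P lyase, spans chr10:61098642-61147703 on the minus strand with 15 exons of 6143 bases. Its normalized count was 2114, 2205, 2035 and 1762 in Ndrg3ctrl replicates 1 to 4 and 2101, 2327, 1994 and 1850 in Ndrg3TKO. Replicate 2 was the highest and replicate 4 the lowest in either group, and the groups overlapped, with Ndrg3TKO replicate 2 above every Ndrg3ctrl library. Means of 2029 ± 191 and 2068 ± 201 (SD, n = 4 each) gave a log2 fold change of 0.03 (95% interval −0.14 to 0.20, adjusted p = 0.928, edgeR quasi-likelihood test with Benjamini-Hochberg adjustment). In percent of the Ndrg3ctrl level the interval runs from −9.25 to 14.6. With the Y-linked covariate the value was −0.0084 and without Ndrg3ctrl replicate 4 it was −0.04, so its sign was not stable.

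Cd69 (ENSMUSG00000030156), the early activation antigen that holds S1PR1 inside the cell, lies at chr6:129267325-129275436 on the minus strand with 4 exons of 6509 bases. In Ndrg3ctrl replicates 1 to 4 the normalized count was 2915, 3297, 3109 and 2553, and in Ndrg3TKO it was 3117, 3410, 3710 and 2808. Ndrg3TKO replicates 2 and 3 were above the highest Ndrg3ctrl library, and the other two lay within the Ndrg3ctrl range. The means were 2968 ± 318 and 3261 ± 387 (SD, n = 4 each), and the log2 fold change of 0.14 (95% interval −0.06 to 0.33, standard error 0.0911) did not pass (adjusted p = 0.638, edgeR quasi-likelihood test, Benjamini-Hochberg adjustment). Both of those libraries also carried Y-linked counts, and among the 3 libraries with such counts the Ndrg3ctrl library had 3297 against 3410 and 3710. Among the libraries without, Cd69 overlapped between the groups (2553 to 3109 against 2808 to 3117). The part of Y-linked counts in this difference was not tested beyond the covariate fit, in which Cd69 did not pass.

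Cd44 (ENSMUSG00000005087), the hyaluronan receptor whose surface level also marks antigen-experienced T cells, spans chr2:102811141-102901665 on the minus strand with 19 merged exons of 6776 bases. Its normalized count was 1533, 1481, 1333 and 1156 in Ndrg3ctrl replicates 1 to 4 and 1374, 1288, 1402 and 1193 in Ndrg3TKO. All 4 Ndrg3TKO libraries fell inside the Ndrg3ctrl range. The log2 fold change was −0.07 (95% interval −0.25 to 0.11, adjusted p = 0.832, edgeR quasi-likelihood test with Benjamini-Hochberg adjustment). Counts were made per gene, so the alternatively spliced forms of Cd44 were not told apart.

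Genes of memory-like or recirculating CD8 T cells, in which CD44 is high, did not move as 1 group beside it. Of 12 such markers 11 were tested, 8 negative and 3 positive in log2 fold change, and 3 fell, beside 1.15% of all tested genes that passed in either direction: Ccl5, a chemokine of memory and effector cells (log2 fold change −2.39, adjusted p = 6.03e-04), Cxcr3, a chemokine receptor of effector cells (−1.55, adjusted p = 0.00356), and Eomes, a transcription factor of memory cells (−1.26, adjusted p = 1.70e-04), all by edgeR with Benjamini-Hochberg adjustment. In the libraries without Y-linked counts alone the adjusted p of Cxcr3 was 0.0574. The 3 positive markers, Nkg7 (0.23), Klrd1 (0.31) and Itga4 (0.19), did not pass (adjusted p = 0.203, 0.320 and 0.142, edgeR), and they were named after their values were seen. The summed level of the 12 was 1074 to 1137 CPM in Ndrg3ctrl and 1137 to 1208 CPM in Ndrg3TKO. Most of this sum came from Itga4 (12489 to 15923 normalized counts over all libraries), Il2rb (8471 to 10634) and Nkg7 (6365 to 8562). Ccl5 (4.54 to 39.8), Cxcr3 (14.5 to 64.0) and Eomes (150 to 528) added little to it, so the sum does not reflect the 3 that fell. The part of such cells in the Cd44 count was not tested.

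Selplg (ENSMUSG00000048163), which encodes the P-selectin ligand PSGL-1, lies at chr5:113818536-113832644 on the minus strand with 3 exons of 4272 bases. Normalized counts were 18050, 19483, 17425 and 17511 in Ndrg3ctrl replicates 1 to 4 and 17831, 19071, 19151 and 18325 in Ndrg3TKO. Ndrg3ctrl replicate 2 was the highest of all 8, and no Ndrg3TKO library lay outside the Ndrg3ctrl range. Its difference was the most tightly bounded of the 7, a log2 fold change of 0.04 with a 95% interval of −0.08 to 0.16 (adjusted p = 0.864, edgeR quasi-likelihood test, Benjamini-Hochberg adjustment), that is from −5.71% to 11.7%.

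Coro1a (ENSMUSG00000030707), which encodes the actin regulator coronin 1A, lies at chr7:126699773-126707787 on the minus strand with 13 exons of 2783 bases, 26 of which it shares with Bola2 on the other strand. Whether reads were counted by strand is not given in the sources used here, so reads on those 26 bases could belong to either gene. Its normalized count was 43910, 49488, 39723 and 42107 in Ndrg3ctrl replicates 1 to 4 and 41765, 46165, 39996 and 39994 in Ndrg3TKO. Replicate 2 was the highest library in both groups, and every Ndrg3TKO library lay inside the Ndrg3ctrl range. The log2 fold change was −0.06 (95% interval −0.23 to 0.11, adjusted p = 0.835, edgeR quasi-likelihood test with Benjamini-Hochberg adjustment), and it came to 0.00023 without Ndrg3ctrl replicate 2.

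**Figure D3:**
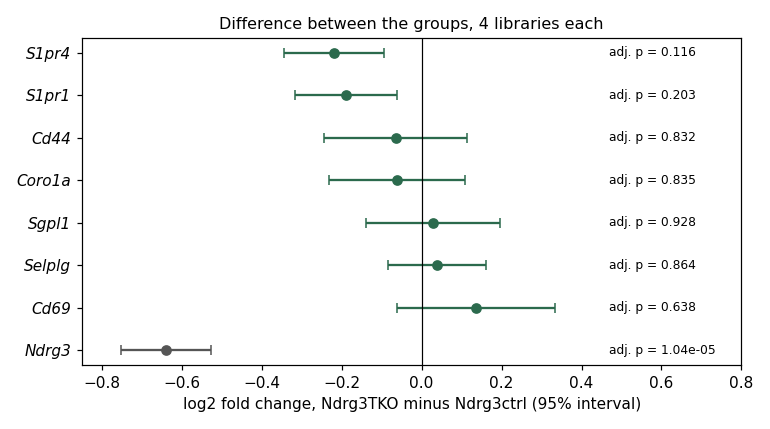
Log2 fold change (x axis, Ndrg3TKO minus Ndrg3ctrl, 4 libraries each) of the 7 genes and of the floxed gene Ndrg3, with 95% intervals from the edgeR fit and adjusted p-values at the right. The intervals of S1pr4 and S1pr1 lie below 0, and those of the other 5 egress and homing genes include 0.

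Per exon length the genes kept 1 order in every library. Coro1a had a level of 533 ± 43.0 RPKM (counts scaled by exon length and library size, SD over the 8 libraries), Selplg 149 ± 6.39, S1pr1 122 ± 11.0 and S1pr4 67.3 ± 6.58. Cd69 followed with 16.5 ± 1.93, Sgpl1 with 11.5 ± 1.03 and Cd44 with 6.86 ± 0.668. Each neighbouring pair in this order stood in the same order in 8 of 8 libraries with no overlap of their ranges, the closest pair being Selplg and S1pr1 with 1.22 times between their means. Coro1a was at percentile 99.4 of the tested genes, the receptors S1pr1 and S1pr4 at 97.5 and 95.6, and Cd44 at 52.9.

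**Figure D4:**
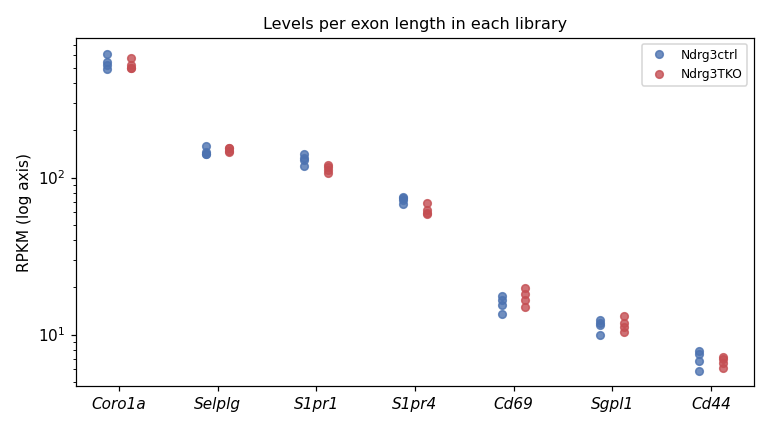
Level per exon length in RPKM (y axis, log scale) of the 7 genes in each Ndrg3ctrl (blue) and Ndrg3TKO (red) library. Coro1a lies near 533 and Cd44 near 6.86, and the ranges of neighbouring genes over the 8 libraries do not overlap.

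Since thymocytes lose Cd69 and gain S1pr1 as they become ready to leave, the ratio of these transcripts within a library is given as a description, with no test. The S1pr1 level per length was 8.56, 8.01, 7.15 and 9.52 times that of Cd69 in Ndrg3ctrl replicates 1 to 4 and 6.50, 6.62, 5.89 and 7.54 times in Ndrg3TKO. The means were 8.31 ± 0.991 and 6.63 ± 0.682 (SD, n = 4 each), and 1 Ndrg3TKO library, replicate 4, reached into the Ndrg3ctrl range. For S1pr4 the ratio to Cd69 was 4.64 ± 0.661 in Ndrg3ctrl (4.08 to 5.56) and 3.62 ± 0.435 in Ndrg3TKO (2.99 to 3.97), and these ranges did not overlap. This pair joins the member with the lowest log2 fold change to the one with the highest, and neither passed. The share of all gene pairs whose ratios separate in this way was not computed. The ratio of the receptors to each other differed by less than its SD, 1.80 ± 0.0793 in Ndrg3ctrl and 1.84 ± 0.117 in Ndrg3TKO.

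The genes also varied together from library to library. Ndrg3ctrl replicate 2 was the highest Ndrg3ctrl library for 5 of the 7 genes and Ndrg3TKO replicate 2 the highest Ndrg3TKO library for 4 of them, while Ndrg3TKO replicate 4 was the lowest for 4. Over the 8 libraries the log2 CPM of S1pr1 and S1pr4 correlated with a Pearson r of 0.853, which fell to 0.591 once each group's mean had been taken off. S1pr1 and Coro1a had r = 0.812 within groups, S1pr1 and Selplg 0.878, and S1pr4 and Cd69 −0.0548. All of these points share their library and its scaling, so they are descriptions of 8 libraries.

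By the same measure over the 8 libraries, the tested genes most like each member were as follows. They were picked as the highest of all tested genes, and with 8 libraries that choice alone can give a high r. Group means were left in, so r also holds any difference between the groups. S1pr1 was closest to Elp5 (r = 0.982), Rasal2 (0.976) and Stk40 (0.976). S1pr4 was closest to Gbe1 (r = 0.970), Klf2 (0.961), the Kruppel-like factor known to drive S1pr1 transcription in T cells, and Pglyrp1 (0.957). Klf2 itself had 9614 ± 855 normalized counts in Ndrg3ctrl and 8048 ± 647 in Ndrg3TKO (log2 fold change −0.26, adjusted p = 0.130 by edgeR, from 0.0207 without a filter on low counts to 0.368 over the settings with no term for the replicate number). Cd69 was closest to Tspan14 (r = 0.984), Wdr35 (0.971) and Trim32 (0.952), and Cd44 to Cd28 (0.976), the costimulatory receptor, Rtf1 (0.968) and Dapk1 (0.962). Sgpl1 was closest to Foxn2 (r = 0.984), Nceh1 (0.967) and Tmem185b (0.965), and Selplg to Psenen (0.970), Sfr1 (0.963) and Akirin1 (0.958). Coro1a was closest to Gpi1 (r = 0.985), Gnai2 (0.973), a G protein subunit through which S1PR1 signals, and Clta (0.972).

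Around the 7 genes, 10 lists of pathway genes held 141 others, of which 124 were tested. Of these 3 passed, 1 higher and 2 lower, where 1.15% of all 14633 tested genes passed. The 124 had a median log2 fold change of −0.03, beside −0.0033 over all tested genes. Wipf1, a partner of the actin regulator WASP, rose in Ndrg3TKO (log2 fold change 0.29, adjusted p = 0.0339). Plxnd1, a plexin that guides thymocyte migration to the medulla, fell (−0.61, adjusted p = 0.0166), and so did Egr1, a gene induced by T cell receptor signals (−0.43, adjusted p = 0.0422), all by edgeR with Benjamini-Hochberg adjustment. None of these 3 calls held without Ndrg3ctrl replicate 1, without Ndrg3ctrl replicate 3 or without Ndrg3TKO replicate 3, where the edgeR adjusted p was 0.0574, 0.118 and 0.121 for Wipf1, 0.0682, 0.0620 and 0.0565 for Plxnd1 and 0.134, 0.0932 and 0.0833 for Egr1. Wipf1 was also lost without Ndrg3ctrl replicate 4 (0.109), Ndrg3TKO replicate 1 (0.106) or replicate 2 (0.0723), and Egr1 without Ndrg3ctrl replicate 2 (0.0683), Ndrg3TKO replicate 2 (0.0940) or replicate 4 (0.0789), adjusted p-values of the same edgeR test.

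**Figure D5:**
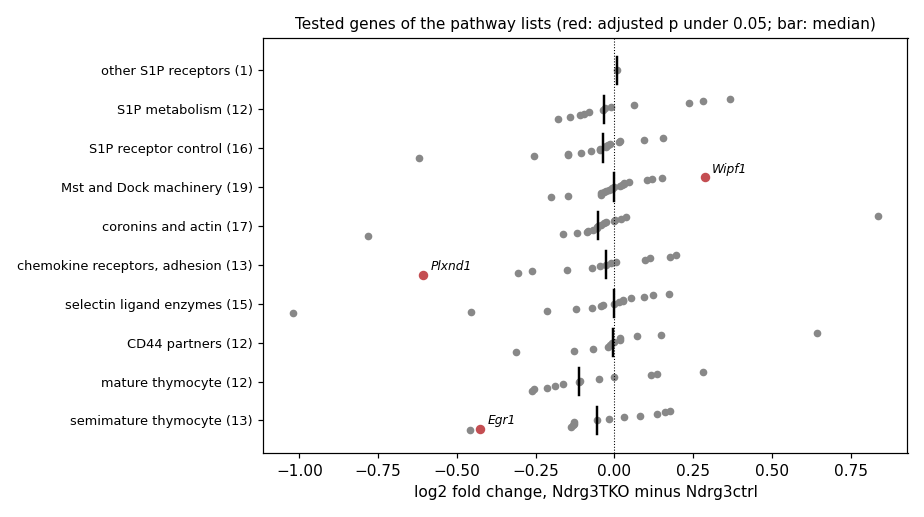
Log2 fold change (x axis, Ndrg3TKO minus Ndrg3ctrl) of the tested genes in the 10 pathway lists (y axis, number of tested genes in brackets), with the list median as a bar and genes with an adjusted p under 0.05 in red. Wipf1 at 0.29, Plxnd1 at −0.61 and Egr1 at −0.43 are the genes past the threshold, and the medians lie between −0.11 and 0.0098.

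Of the genes that make, break and carry S1P and its precursors, 12 of 17 were tested and none passed, with a median of −0.03. The most abundant were the ceramide synthases Cers2 (−0.01) and Cers5 (−0.04) and the S1P-producing kinase Sphk2 (−0.08), in log2 fold change, and the other kinase, Sphk1, had 0 to 2 counts. Sgpp2, a phosphatase of S1P, had 0 in every library. Of 16 genes that signal from S1P receptors or control them, all 16 were tested and none passed (median −0.04), with Rac2 at 0.02 and Gnai2 at −0.04 the most abundant besides Klf2. Rgs1, a regulator of G protein signalling, was chosen after its value was seen. It had 107 normalized counts in Ndrg3ctrl and 69.1 in Ndrg3TKO with no overlap, as was so for 7.04% of all tested genes. Its log2 fold change of −0.62 did not pass (adjusted p = 0.0807, edgeR, Benjamini-Hochberg).

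The 19 genes of the Mst and Dock machinery of migration were all tested, Wipf1 alone passed and the median was −0.0015. Stk4, the Mst1 kinase needed for thymic exit, was at 0.03, Tln1 at −0.0068 and Cdc42 at −0.04. Of 18 coronin and actin turnover genes 17 were tested and none passed (median −0.05), with Cfl1 at −0.05, Cap1 at −0.06 and Arpc2 at −0.12 as the most abundant. Coro2a and Coro2b, other coronins, were chosen after their values were seen. Coro2a had 651 normalized counts in Ndrg3ctrl and 1162 in Ndrg3TKO with no overlap, as was so for 7.04% of all tested genes. Its log2 fold change of 0.84 did not pass (adjusted p = 0.0548, edgeR, Benjamini-Hochberg). Coro2b went the other way, with 84.8 normalized counts in Ndrg3ctrl and 49.5 in Ndrg3TKO and overlapping groups. Its log2 fold change of −0.78 did not pass either (adjusted p = 0.152 by the same test).

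Of 14 chemokine receptor and adhesion genes of thymic exit 13 were tested and Plxnd1 passed (median −0.03). Ccr7, the receptor that draws mature thymocytes to the medulla, was at −0.26 (edgeR adjusted p = 0.135, Benjamini-Hochberg), the integrin chain Itgb7 at 0.0065 and the lymphotoxin chain Ltb at −0.0097. Of 18 selectins and enzymes that build selectin ligands on proteins such as PSGL-1, 15 were tested and none passed (median −7.05e-05), with St3gal1 at −0.04 and B4galt1 at 0.03. Of 16 genes that make the CD44 ligand or link and cleave CD44, 12 were tested and none passed (median −0.0042), with Lck at −0.02, moesin (Msn) at −0.01 and Spn at −0.13. Has1 and Has2, which make hyaluronan, had 0 in every library.

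The maturation lists place S1pr1 and Cd69 among their stage markers. Each of the 12 genes that rise in mature thymocytes, S1pr1 included, was tested, none passed, 9 were negative and the median was −0.11. At an unadjusted p under 0.05, against 5.51% of all tested genes lower and 5.34% higher, 8 of the 12 differed, 5 lower (among them S1pr1, Klf2, Ccr7 and Ms4a4b) and 3 higher (H2-Q7, Ifngr1 and Foxp1), so that they did not move as 1 group. The list was drawn up with results of these samples known, so its count is not independent evidence of a direction. Its most abundant genes were H2-K1 at −9.4e-04, H2-D1 at −0.05 and Cd52 at −0.11. Of 14 genes high in semimature thymocytes, Cd69 included, 13 were tested, Egr1 passed and the median was −0.06, with Ccr9 at 0.18 (adjusted p = 0.216, edgeR), Cd5 at −0.13 and Nab2 at −0.06.

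Markers of other cells that the gate could hold were summed per library. Those of immature thymocytes summed to 56.2 to 65.3 CPM in Ndrg3ctrl and 54.1 to 65.9 in Ndrg3TKO, with 0 of 5 tested genes passing and Ptcra at 0 to 3 counts. The CD4 T cell markers summed to 4.50 to 6.91 and 5.10 to 8.18 CPM, with 0 of 3 tested genes passing. Those of gamma delta T and NK cells summed to 11.7 to 14.9 and 12.8 to 16.9 CPM, with Ncr1 at 0. Of their 3 tested genes 1 passed, Klrb1c, beside 1.15% of all tested genes. The other 2 had negative log2 fold changes near 0, and the list median was −0.03. Klrb1c rose from 8.82 to 51.3 normalized counts (log2 fold change 2.62, adjusted p = 0.00149, edgeR, Benjamini-Hochberg). B cell markers summed to 252 to 301 and 261 to 312 CPM, with Ms4a1 at 0, and 0 of 2 tested genes passed. Myeloid and dendritic markers summed to 22.7 to 28.1 and 24.2 to 28.0 CPM (0 of 3 tested genes passed). Markers of thymic epithelium, endothelium and erythroid cells summed to 156 to 180 and 148 to 163 CPM (0 of 3 tested genes passed), with the globin genes at 0. The part of such cells in the S1pr1 and S1pr4 values was not tested.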

How the data were processed

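RNA of sorted CD8SP TCRb+ MHC-I high thymocytes was sequenced from 4 Ndrg3ctrl and 4 Ndrg3TKO mice after ribosomal RNA depletion with a stranded kit. After trimming (cutadapt) and alignment to GRCm38.p4 (STAR), the authors counted reads per gene with featureCounts and deposited these counts, which are whole numbers with no normalization. The strand and multiple-match settings are not given in the sources used here. Gene symbols, exon lengths and positions came from GENCODE M21 (GRCm38), which matched 98.7% of the identifiers. Groups and replicate numbers came from the labels.

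The test was edgeR 4.0.16 in R 4.3.3 (filterByExpr per group, TMM factors, robust glmQLFit, glmQLFTest), called at a Benjamini-Hochberg adjusted p under 0.05 over 14633 genes. A standard error is the size of the log2 fold change over the root of F. Normalized counts are scaled to the mean library total. Alternatives used DESeq2 1.42.0, limma-voom 3.58.1, a likelihood ratio test, other scalings and filters, a Y-linked covariate and left-out libraries, and the procedure was tested on simulated data. Totals of 21126698 to 32668081 counts put the floor of 3 counts at 0.0918 to 0.142 CPM per library. Floors from counts cover counting error only. The intervals of the log2 fold changes come from the edgeR fit and its standard errors, so they include the spread between libraries. The p-values likewise measure the spread between these 8 libraries.

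The 7 members, the 10 pathway lists and the 8 marker lists were chosen with earlier results of these data known. Genes were named singly if they were members, the targeted gene, list genes past the threshold, up to 3 genes of each pathway list with the highest level per length, or the 3 genes most correlated with a member. Any other was named after its value was seen. Some list genes are not reported here singly. Promoter windows of 250 bases came from RefSeq (GRCm38.p6), and 5 motifs were sought on both strands. The S1P receptor proteins were not compared here.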

Additional observations from a re-analysis of the deposited data

Results flagged for a closer look

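Of 38 groups of 4 libraries checked for 1 library standing apart from the other 3, 2 were found, and chance gives about 1 in 20, or 1.9 here. The mitochondrial share of the counts was 0.636% in Ndrg3ctrl replicate 4 against 0.803 to 0.820% in the other Ndrg3ctrl libraries. That library was also the lowest Ndrg3ctrl library for Sgpl1, Cd69 and Cd44 and the highest for S1pr4. Y-linked genes had 340 CPM in Ndrg3ctrl replicate 2 against 0 to 0.0752 CPM in the others of its group, and that library was the highest Ndrg3ctrl library for S1pr1, Sgpl1, Cd69, Selplg and Coro1a. No library stood apart by this measure in the counts of any of the 7 genes.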

How the results depend on the processing

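Of the 7 genes, S1pr1, S1pr4, Cd69, Cd44 and Selplg kept the direction of their log2 fold change under each of 20 alternative settings. With single libraries left out, Cd69 ran from 0.07 to 0.20, Cd44 from −0.14 to −0.0075 and Selplg from 0.02 to 0.07, and none of the 3 passed. S1pr4 came past the threshold in DESeq2 (−0.22), with no low-count filter (−0.22), with the Y-linked covariate (−0.23) and without Ndrg3TKO replicate 2, the cause was not tested, and with single libraries left out it ran from −0.27 to −0.19. S1pr1 came past it with the Y-linked covariate (−0.22). Sgpl1 turned to −0.0084 with that covariate and ran from −0.035 to 0.078 with single libraries left out, and Coro1a from −0.11 to 0.00023.

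The number of genes called among all tested was 168 and became 309 in DESeq2, 285 in edgeR's likelihood ratio test, 274 without a filter, 437 with the Y-linked covariate, 92 in the libraries without Y-linked counts, and 90 to 158 with single libraries left out. In the pathway lists 3 genes were called and then 7 in DESeq2, in the likelihood ratio test and without a filter, 5 with upper quartile scaling or library totals alone, 13 with the covariate, 0 in the libraries without Y-linked counts and 0 to 3 with single libraries left out. In the marker lists 4 were called and then 8 in DESeq2 and with the covariate, 7 in the likelihood ratio test, 2 under the stricter filter (10 counts or more per library), and 4 to 5 with single libraries left out.

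The replicate numbers were also used as a block. Once group means had been removed, the correlation over genes between the libraries numbered 1, 2, 3 and 4 was r = 0.181, 0.415, −0.0550 and 0.301, so not every pair deviated together, and 3 of the 4 Ndrg3ctrl libraries correlated best with their own number, a hint from the data and not from the design. With the replicate block 800 genes were called, 19 of them in the pathway lists and 9 in the marker lists, and S1pr1 (−0.19, edgeR adjusted p = 0.0167) and S1pr4 (−0.22, adjusted p = 0.00368) came past the threshold, while H2-K1 was at 6.1e-04.

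Some list genes with a log2 fold change near 0 turned its sign. H2-K1 was at 0.0087 with upper quartile scaling, 0.0060 with library totals alone, 0.0013 without a filter, 6.9e-04 under the stricter filter and 0.0044 in the libraries without Y-linked counts. Under upper quartile scaling Ltb was at 2.7e-04 and Tln1 at 0.0024. With the covariate Itgb7 was at −0.040, Rac2 at −0.0078 and S1pr2 at −0.057, and in the libraries without Y-linked counts Itgb7 was at −0.056, Ltb at 0.034 and S1pr2 at −0.012. With single libraries left out, the log2 fold changes ran, for B4galt1 from −0.0091 to 0.071, for Cdc42 from −0.090 to 0.0060, for Cers2 from −0.062 to 0.046, for Cfl1 from −0.091 to 0.0085, for Gnai2 from −0.087 to 0.0077, for H2-D1 from −0.10 to 0.011, for H2-K1 from −0.035 to 0.053, for Itgb7 from −0.061 to 0.062, for Lck from −0.051 to 0.010, for Ltb from −0.043 to 0.071, for Msn from −0.064 to 0.047, for Rac2 from −0.017 to 0.052, for S1pr2 from −0.069 to 0.092 and for Tln1 from −0.044 to 0.043.

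Medians of some lists moved as well. Without a filter they were −0.40 for the memory-like markers, 0.67 for gamma delta T and NK, −0.43 for B cell, −0.33 for myeloid and 0.67 for epithelial, endothelial and erythroid markers. In the libraries without Y-linked counts they were −0.51 for memory-like and 0.20 for gamma delta T and NK markers, and under the stricter filter 0.13 for CD4 markers. With single libraries left out the S1P synthesis, breakdown and transport list ran from −0.055 to −0.015, CD4 markers ran from −0.40 to 0.46 and myeloid markers ran from −0.15 to 0.058.

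Counting error stayed under the spread between the 4 libraries of a group for the 7 genes, and for genes at 0 to 3 counts, such as S1pr3, S1pr5 and Sphk1, depth is the limit.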
